A study of Arabidopsis thaliana with 36 samples.

Results

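Large polysomal RNA was compared with small polysomal RNA at Zeitgeber time 12 (ZT12, hours after lights on, 6 pm) in 6 of the 36 arrays of a day-course study of Arabidopsis thaliana. The 6 arrays were those titled wild type, 6pm and large polysomal (3 replicates) or small polysomal (3 replicates), and a large and a small fraction with the same replicate number formed a pair. Both groups were the aerial parts of wild-type Columbia seedlings, 10 days old, grown on agar plates of Murashige and Skoog salts with 1% sucrose in long days (16 h light, 8 h dark), and they differed by fraction alone. The same 2 fractions at ZT0, ZT6 and ZT18 and the non-polysomal RNA of ZT12 were used for comparison. ZT12 lay in the light period and ZT18 in the dark. The labels do not say whether replicates came from separately grown plants, so the p-values cover the spread among these arrays only, which may be technical. In RNA from whole shoots, fewer cells of a type and less RNA per cell cannot be told apart.

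A polysome is an mRNA with several ribosomes on it. Ultracentrifugation through a sucrose gradient spreads polysomes by size, so that mRNAs carrying many ribosomes are collected in the large fraction and those carrying few in the small fraction. How many ribosomes an mRNA carries depends on how often translation starts on it, how fast ribosomes move and how long its coding sequence is, since a short coding sequence has room for few ribosomes. Plastid and mitochondrial mRNAs are translated by the organelles' own, bacterial-type ribosomes. The comparison asks which transcripts lie in the heavier rather than the lighter polysomes late in the day.

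Each value is a log2 expression summary of a probe set on an Affymetrix array, on a scale that starts at 2.2, and the arrays were scaled to nearly the same distribution, so a difference is relative to the average mRNA of the fraction. A difference of 1 is a factor of 2 in RNA signal. Of 13356 genes that a probe set matched alone, 6846 had a mean of at least 4 over the 36 arrays and were tested. Replicate arrays correlated at 0.955 to 0.968 in small and 0.962 to 0.977 in large polysomal RNA, and small with large arrays at 0.902 to 0.943. The leaf genes RCA, LHCB4.1 and LHCB4.2 read 10.8 to 14.3 on all 6 arrays. Of the root markers with a probe set, EXPA7 was at the lower end of the scale on all 6, and PYK10 read 9.60 to 10.7. Sequences and lengths of the transcripts were not at hand, so the part of coding length in any difference was not tested.

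At ZT12, 1325 genes were higher in large than in small polysomes and 1602 were lower (limma with the extract as a block, Benjamini-Hochberg adjusted p under 0.05, 2-sided), which is 19.4% and 23.4% of the genes tested, or 42.8% (2927 genes) together. The differences were moderate. The quartiles over all genes were -0.45 and 0.37, around a median of -0.02, and the median size among called genes was 0.79. The excess of lower calls depended on the scaling, with 1447 higher and 1522 lower after median centring and 1525 and 1479 after cyclic loess. It also depended on the probe sets tested. Over 12719 probe sets, including those not matched to a single gene, 2881 (22.7%) were higher and 2634 (20.7%) lower. Calls with a log2 difference over 1 were more frequent on the lower side, with 572 genes (8.36%) against 297 (4.34%) on the higher side. All 3 large values lay above all 3 small values in 1230 genes (18%) and below them in 1522 (22.2%). The differences of the 3 pairs correlated across genes at 0.676 to 0.757. Without replicate 3 at every time, 882 genes were higher.

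**Figure D1:**
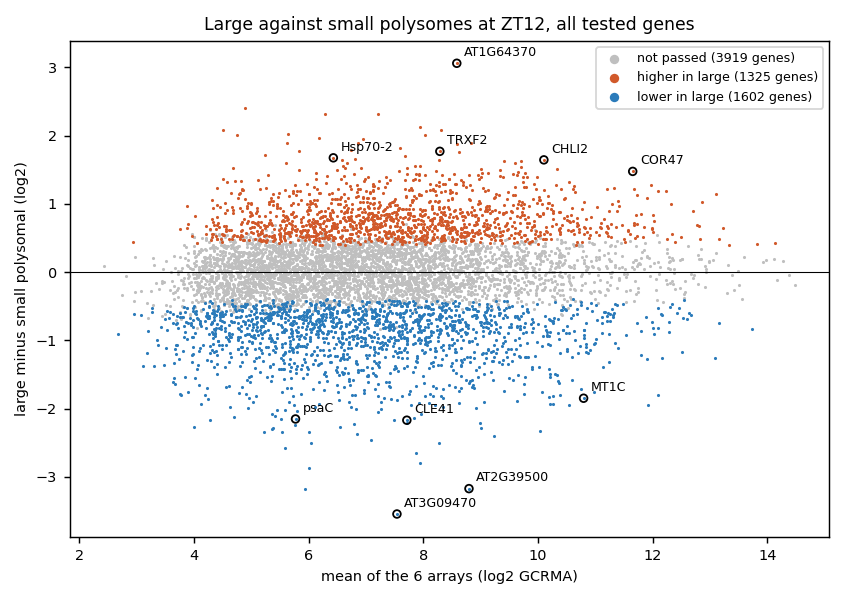
Large minus small polysomal difference at ZT12 (y axis, log2) against the mean of the 6 arrays (x axis, log2 GCRMA) for each of the 6846 genes tested. Each point is a gene, orange where higher in large (1325), blue where lower (1602) and grey where it did not pass. The largest differences were on the lower side, to -3.54 for AT3G09470.

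Among genes higher in large polysomes, AT1G64370 led. Its small polysomal values were 6.80, 7.49 and 6.87 in replicates 1 to 3, and its large polysomal values 10.0, 9.99 and 10.3. The groups lay far apart, and the difference was 3.06 ± 0.20, or 8.35-fold, with an adjusted p of 3.5e-08 in limma. Unless marked SD, ± is the SE of the fit, which shares the spread of all 4 times and of other genes. It is not the spread of the 3 pairs alone, which for AT1G64370 were at 3.2, 2.5 and 3.5. AT5G64110 read 3.43, 3.65 and 3.97 in small and 6.20, 5.98 and 6.11 in large polysomes, a difference of 2.41 ± 0.17. AT2G43590 followed with 4.75, 5.07 and 5.56 against 7.36, 7.03 and 7.94, a difference of 2.32 ± 0.17. In both genes every large value was above every small one. AT2G22230 differed by 2.12 ± 0.17, AT4G34290 by 2.08 ± 0.19, AT3G02640 by 2.03 ± 0.25, AT5G44380 by 2.02 ± 0.29 and AT1G04800 by 2.01 ± 0.21, again with no overlap. A choice by the largest differences favours groups that do not overlap, so this adds no support. AT4G12490 and AT4G12500 stood out by their levels in replicate 3. AT4G12490 read 5.02, 4.6 and 8.54 in small and 7.10, 7.54 and 10.5 in large polysomes. AT4G12500 read 2.2, 2.35 and 5.86 against 3.78, 3.85 and 9.02. The groups of each overlapped, while each pair differed upward, by means of 2.32 ± 0.20 and 2.08 ± 0.32. Without the replicate block their calls ended (adjusted p 0.093 and 0.16 in limma). The tables give no symbol for these 10 genes.

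On the lower side AT3G09470 read 9.46, 9.14 and 9.34 in small and 5.69, 6.04 and 5.57 in large polysomes, a difference of -3.54 ± 0.27 (adjusted p 8.1e-08 in limma) and an 11.7-fold lower signal in the large fraction. AT2G39500 read 10.3, 10.2 and 10.6 against 7.12, 7.14 and 7.36, or -3.17 ± 0.28. AT2G14460 read 7.67, 6.70 and 8.22 against 3.95, 4.67 and 4.45, also -3.17, with an SE of 0.33. None of the large values of these genes reached a small value. The other named genes were AT5G21020 (-2.87 ± 0.33), AT3G52360 (-2.80 ± 0.26), AT1G49245 (-2.65 ± 0.27), AT5G57080 (-2.58 ± 0.24), AT1G17090 (-2.50 ± 0.24), AT1G53030 (-2.50 ± 0.20) and AT4G33310 (-2.46 ± 0.22). These too have no symbol in the tables. Their groups did not overlap, which the choice by largest difference favours, and 22.2% of all genes had all large below all small values.

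**Figure D2:**
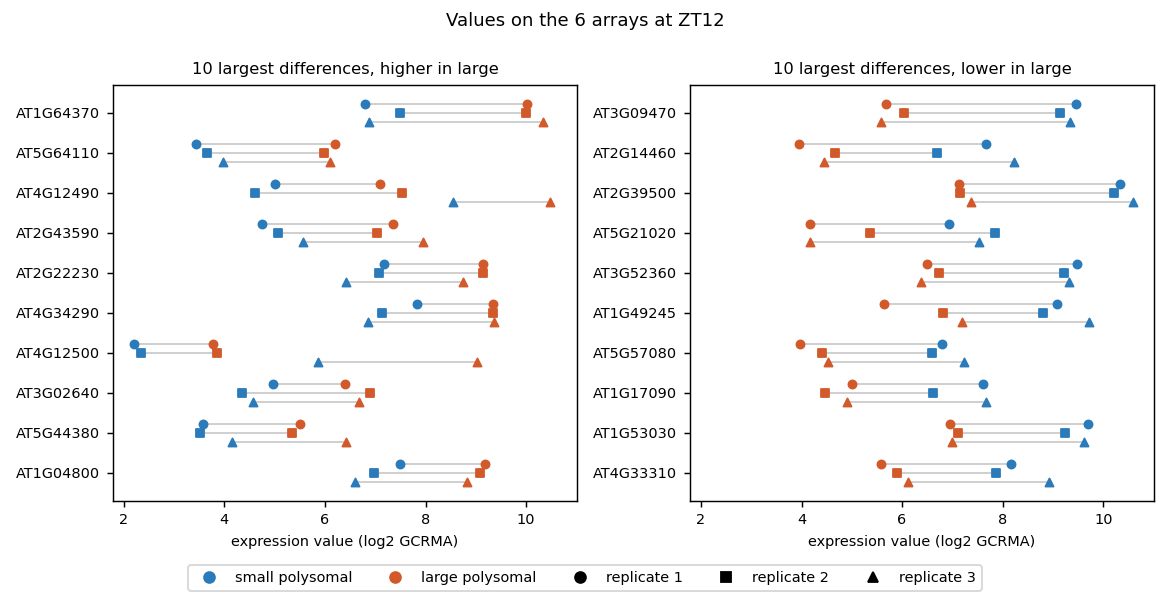
Values (x axis, log2 GCRMA) of the 10 genes with the largest differences in each direction on the 6 arrays at ZT12. Blue symbols are small and orange symbols large polysomal arrays, marker shapes give the replicate, and grey lines join a pair. The genes were chosen for the same sign in all 3 pairs, and replicate 3 of AT4G12490 and AT4G12500 sits apart from replicates 1 and 2 in both fractions.

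The genes with a symbol were picked after their values were seen, so they stand for no theme. TRXF2 (AT5G16400), a chloroplast thioredoxin that activates photosynthetic enzymes, read 7.92, 7.23 and 7.06 in small and 9.52, 8.81 and 9.19 in large polysomes, a difference of 1.77 ± 0.17. CHLI2 (AT5G45930), a subunit of magnesium chelatase in chlorophyll synthesis, read 9.40, 9.65 and 8.79 against 10.7, 11.3 and 10.8, or 1.65 ± 0.17. CLPP4 (AT5G45390), of the plastid Clp protease, differed by 1.63 ± 0.20, and SECE1 (AT4G14870), of the thylakoid Sec translocase, by 1.49 ± 0.20. PRXIIF (AT3G06050), a mitochondrial peroxiredoxin, differed by 1.70 ± 0.17, GSTU20 (AT1G78370), a glutathione transferase, by 1.46 ± 0.25, and EXLB1 (AT4G17030), an expansin-like wall protein, by 1.45 ± 0.16. EXLB1 overlapped between groups because replicate 2 was high in both fractions (6.47 and 7.82, against 4.66 to 5.06 and 6.05 to 6.68). The cytosolic chaperone gene Hsp70-2 (AT5G02490) read 5.37, 5.14 and 6.27 against 6.86, 7.61 and 7.33, or 1.68 ± 0.27.

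Genes with a symbol that were lower in large polysomes were of mixed function. SBT3.12 (AT4G21326), a subtilisin-like protease, read 7.14, 7.59 and 6.81 in small and 5.44, 4.91 and 4.16 in large polysomes, a difference of -2.34 ± 0.26. CLE41 (AT3G24770), whose peptide hormone regulates vascular stem cells, read 8.90, 8.27 and 9.23 against 6.04, 7.21 and 6.64, or -2.17 ± 0.28. MT1C (AT1G07610), a metallothionein, read 11.8, 11.5 and 11.9 against 9.34, 10.2 and 10.1, or -1.85 ± 0.27, and close family members could share its probes. The small GTP-binding protein genes SGP1 (AT5G54840) and SGP2 (AT3G21700) differed alike, by -1.81 ± 0.21 and -1.70 ± 0.20. Others were SDP1-LIKE (AT3G57140), a lipase gene, at -1.98 ± 0.27, VIIIB (AT4G27370), a myosin, at -1.76 ± 0.28, SAMBA (AT1G32310), a regulator of the anaphase-promoting complex, at -1.68 ± 0.21, TBL32 (AT3G11030), of xylan acetylation, at -1.67 ± 0.24 with a probe set that can match several transcripts, and NGA1 (AT2G46870), a transcription factor of leaf and flower shape, at -1.61 ± 0.21. None of these groups overlapped, which the choice by largest difference favours.

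Of 15 cold-regulated genes listed 4 were tested, and all 4 were higher in large polysomes, against 19.4% of all genes. Their median was 1.33, against -0.02 over all genes tested. COR47 and LTI30 encode dehydrins, and COR15A and COR15B encode proteins that protect chloroplast membranes in the cold. COR47 (AT1G20440) read 10.9, 11 and 10.9 in small and 12.3, 12.4 and 12.5 in large polysomes, a difference of 1.48 ± 0.19. LTI30 (AT3G50970) differed by 1.53 ± 0.18, COR15A (AT2G42540) by 1.18 ± 0.18 and COR15B (AT2G42530) by 1.14 ± 0.16. None of the 4 overlapped between groups. Over all genes, all 3 large values lay above all 3 small values in 18%.

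The nuclear genes of photosynthesis that were tested moved up or did not pass. The 5 joined lists held 105 genes, of which 22 were tested. Of these 22 genes, 11 were higher in large polysomes and 0 were lower, with a median of 0.45, against 19.4% higher over all genes. The count leaned on replicate 3, with 4 higher without it at ZT12, and was 7 without the replicate block. In chlorophyll synthesis 4 of 6 were higher, and 2 under either of these settings. HEMB1 (AT1G69740), an early enzyme of the pathway, read 9.39, 9.06 and 8.67 against 10.5, 10.1 and 9.93, or 1.13 ± 0.17, and PORB (AT4G27440), which reduces protochlorophyllide, differed by 0.88 ± 0.19. HEME1 (AT3G14930) at 0.15 ± 0.20 and CHLM (AT4G25080) at -0.10 ± 0.17 did not pass. Of 5 photosystem and electron transport genes 3 were higher, and 1 without replicate 2, without replicate 3 or without the block. PSBY (AT1G67740), of photosystem II, read 11.5, 11.4 and 11.1 against 12.6, 12.7 and 12.6, or 1.27 ± 0.15, and ATPC1 (AT4G04640), of the chloroplast ATP synthase, differed by 0.52 ± 0.19. PSAE-1 (AT4G28750) at 0.16 ± 0.16 and PSBW (AT2G30570) at 0.17 ± 0.15 did not pass.

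The 3 genes for the antenna protein CP29 differed among themselves. LHCB4.3 (AT2G40100) was higher by 1.08 ± 0.19, while neither LHCB4.1 (AT5G01530, -0.11 ± 0.16) nor LHCB4.2 (AT3G08940, 0.04 ± 0.19) passed. In the Calvin-Benson cycle SBPASE (AT3G55800), a phosphatase of the cycle, was higher by 0.52 ± 0.18 and AT1G56190 by 0.50 ± 0.16, while RCA (AT2G39730), rubisco activase, at 0.55 ± 0.23 and PRK (AT1G32060) at -0.09 ± 0.19 did not pass. RCA read 12.3, 12.2 and 10.8 in small and 12.4, 12.4 and 12.2 in large polysomes, so that most of its difference lay in replicate 3. Of 4 photorespiration genes 1 (25%) was higher, near the 19.4% of all genes. It was AT1G11860 at 0.49 ± 0.17, while AT1G80380 (0.36 ± 0.18), HPR (0.15 ± 0.17) and AT1G32470 (0.10 ± 0.16) did not pass. Without replicate 3 at ZT12 the calls of ATPC1, SBPASE, AT1G56190 and AT1G11860 ended (adjusted p 0.16, 0.14, 0.17 and 0.24 in limma).

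Of 39 genes for proteins of the cytosolic 40S subunit 13 (33.3%) were higher in large polysomes and 3 (7.69%) lower, with a median of 0.22, against 19.4% and 23.4% of all genes. Of 73 for the 60S subunit 11 were higher and 8 lower, both smaller shares than over all genes, with a median of -0.03. In the 40S list AT3G04840 read 9.35, 8.75 and 8.56 against 10.4, 9.78 and 10.0, or 1.18 ± 0.18, and AT3G60770 differed by 1.07 ± 0.16. Its lowest were AT5G47930 at -0.73 ± 0.18 and AT5G27700 at -0.71 ± 0.21, whose call ended without replicate 1 (adjusted p 0.16 in limma). In the 60S list AT3G11250 differed by 1.35 ± 0.19 and AT3G09630 by 0.86 ± 0.19. AT3G02190 read 7.90, 7.55 and 8.06 against 6.16, 5.79 and 6.72, or -1.61 ± 0.26, and AT2G40010, near the lower end of the scale, differed by -1.38 ± 0.29. The medians depended on the pair, at -0.10, 0.33 and 0.53 for the 40S and -0.30, 0.11 and 0.28 for the 60S list in replicates 1 to 3. Without replicate 3 at ZT12 the higher calls were 7 and 3, without replicate 2 those of the 60S list were 7, and without replicate 1 the lower calls were 1 and 3.

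Of 9 nuclear genes for plastid ribosomal proteins 5 were higher and 1 lower, against 19.4% and 23.4% of all genes, with a median of 0.57. The pair medians were 0.21, 0.20 and 0.98 in replicates 1 to 3, and without replicate 3 at ZT12 3 were higher. AT1G64510 read 9.16, 8.85 and 8.37 against 10.6, 10.0 and 10.6, or 1.61 ± 0.25, and AT4G01310 differed by 0.95 ± 0.21. At the other end AT1G29070 (-0.36 ± 0.19) did not pass. The call of AT4G17560 (-0.70 ± 0.22) ended without replicate 1 or without replicate 2 (adjusted p 0.28 and 0.073 in limma). Of 4 translation factor genes EIF4A-2 (AT1G54270), an initiation factor helicase, was higher by 0.98 ± 0.16 and AT5G12110 by 0.56 ± 0.20, while AT4G20980 (0.52 ± 0.23) and AT5G19510 (-0.14 ± 0.20) did not pass. The call of AT5G12110 ended without replicate 2, without replicate 3 or without the replicate block (adjusted p 0.1, 0.19 and 0.11 in limma).

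Of 12 genes whose 5′ leader encodes a conserved peptide that can arrest ribosomes, 3 (25%) were lower in large polysomes, near the 23.4% of all genes, and 1 was higher. Their median was -0.30, with -0.26, 0.03 and -0.63 in the pairs of replicates 1 to 3, and without replicate 2 at ZT12 5 were lower. AT3G25570 read 6.42, 6.10 and 6.21 in small and 4.84, 5.16 and 5.27 in large polysomes, or -1.15 ± 0.25, with no overlap. BZIP53 (AT3G62420), a transcription factor of sugar and amino acid responses, read 10.9, 11.5 and 10.7 against 9.58, 11.3 and 9.73, or -0.86 ± 0.20. Its replicate 2 hardly differed, and the groups overlapped. AT1G73600 was higher by 0.51 ± 0.19 (adjusted p 0.27 in limma without replicate 1), and PMEAMT (AT1G48600), an enzyme of phosphocholine synthesis, at 0.38 ± 0.19 did not pass.

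In the next lists no gene was lower. For the 19S proteasome 5 of 7 genes were higher (median 0.48, against 19.4% of all genes higher), led by RPN12a (AT1G64520) at 0.84 ± 0.16 and AT1G45000 at 0.65 ± 0.16, while AT5G45620 (0.20 ± 0.21) and AT1G04810 (-0.14 ± 0.17) did not pass. For the mitochondrial chain 5 of 12 nuclear genes were higher (median 0.46), led by SDH1-1 (AT5G66760), of succinate dehydrogenase, with 6.69, 7.40 and 7.42 against 8.22, 8.81 and 8.20, or 1.24 ± 0.20. AT2G20360 was higher by 0.79 ± 0.20 (adjusted p 0.099 in limma without replicate 3), and CYTC-2 (0.03 ± 0.26) and AT5G47030 (-0.07 ± 0.18) did not pass. Of 7 tubulin and actin genes 2 (28.6%) were higher, not far above the 19.4% of all genes. TUB7 (AT2G29550) was higher by 1.32 ± 0.16 and TUB1 (AT1G75780) by 0.85 ± 0.23 (adjusted p 0.12 in limma without replicate 3), and TUB5 (0.09 ± 0.15) and TUA6 (-0.10 ± 0.26) did not pass. Of 10 chaperone genes of the endoplasmic reticulum listed 2 were tested. Both were higher, CRT1b (AT1G09210), a calreticulin, by 0.85 ± 0.17 and AT5G07340 by 0.70 ± 0.17. Without replicate 3 at ZT12 the higher calls were 3 for the proteasome, 1 for the mitochondrial chain and 1 for tubulin and actin, and without replicate 1 they were 3 for the proteasome and 8 for the mitochondrial chain. Without the replicate block they were 3, 3 and 1.

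Of 26 clock-linked genes listed 2 were tested, and both were higher, against 19.4% of all genes. GI (AT1G22770), a clock component of the evening phase, read 5.36, 4.90 and 6.33 in small and 6.41, 6.28 and 6.59 in large polysomes, or 0.89 ± 0.18. AT5G52660 differed by 0.72 ± 0.16 with no overlap. In the list of small secreted proteins and metallothioneins, AT1G66100 was higher by 0.96 ± 0.19 beside AT4G12490 and AT4G12500, and THI2.2 (AT5G36910), a thionin, at 0.50 ± 0.24 did not pass. The other heat shock gene tested, AT5G37670, was at 0.10 ± 0.19. No gene passed among flavonoid genes (UGT78D1 0.40 ± 0.18, UGT78D2 0.38 ± 0.17, DFR -0.26 ± 0.17), starch breakdown and SnRK1 kinase genes (PWD 0.25 ± 0.18, AKINBETA1 0.22 ± 0.17, DPE1 0.08 ± 0.16) or the root marker list (PYK10 0.48 ± 0.20).

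**Figure D3:**
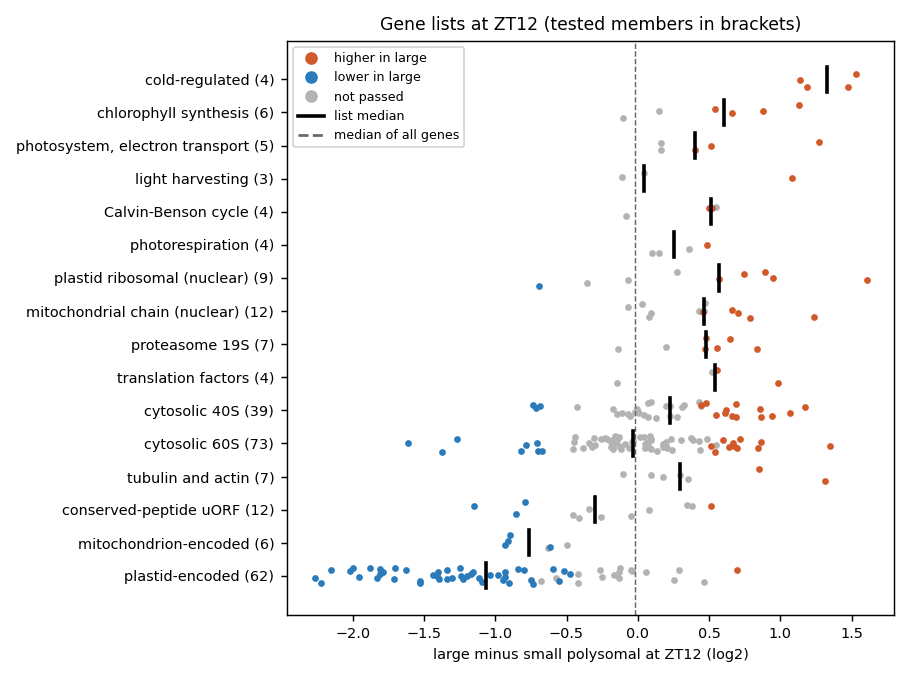
Large minus small polysomal difference at ZT12 (x axis, log2) of each tested member of 16 gene lists. Points are genes, coloured by call, black bars are list medians and the dashed line is the median of all 6846 genes. Cold-regulated genes lie from 1.14 to 1.53, and plastid-encoded genes have a median of -1.07.

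A further 18 families were picked by symbol after values were seen. Over all genes 19.4% were higher and 23.4% lower. Calls went both ways in cytochrome P450 (3 of 11 higher, 4 lower), expansins and xyloglucan endotransglucosylases (5 of 11 and 2), glutathione transferases (3 of 6 and 1), ubiquitin-conjugating enzymes (3 of 10 and 1), ubiquitin-specific proteases (2 of 12 and 3) and aldehyde dehydrogenases (1 of 8 and 1). Cytochrome P450 had 0 higher calls without replicate 1 at ZT12, and 1 lower without replicate 2 or without replicate 3. Ubiquitin-specific proteases had 0 higher calls without replicate 1 or without the replicate block. Expansins and xyloglucan endotransglucosylases had 1 higher call without the block. Families described next are examples and not a sample of the rest. All 4 tested histone H2B genes were higher in large polysomes, HTB2 (AT5G22880) with 10.9, 10.6 and 11.1 against 11.8, 12.1 and 11.8, or 1.05 ± 0.20, HTB1 (AT1G07790) by 0.76 ± 0.18, HTB4 (AT5G59910) by 0.75 ± 0.16 and HTB11 (AT3G46030) by 0.57 ± 0.19 (adjusted p 0.22 in limma without replicate 2), while the centromeric histone H3 gene HTR12 (-0.19) did not pass. Of 6 genes for LSM proteins, which form rings that bind RNA in splicing and decay, 5 were lower (median -0.88). LSM3A (AT1G21190) read 10.7, 9.85 and 10.6 against 8.73, 8.60 and 9.02, or -1.58 ± 0.17, and its homologue LSM3B (AT1G76860) differed by -1.56 ± 0.18. LSM6B, LSM6A and LSM1A were lower by smaller differences of -0.96, -0.79 and -0.73, and without replicate 1 at ZT12 the family had 3 lower calls. Of 4 CLE peptide hormone genes CLE41, CLE44 (-1.34 ± 0.25) and CLE21 (-0.95 ± 0.20) were lower. Serine carboxypeptidase-like genes had 7 of 13 higher and 0 lower, led by SCPL49 (AT3G10410) at 1.20 ± 0.17 and scpl48 (AT3G45010) at 1.04 ± 0.16. UDP-glycosyltransferases had 7 of 21 higher (33.3%, against 19.4% of all genes) and 1 lower. Their higher calls were 3 without replicate 1 and 4 without the block, and their lower calls 2 without replicate 2. Named members were UGT72E1 (AT3G50740), of the phenylpropanoid pathway, at 1.01 ± 0.20 and UGT85A5 (AT1G22370) at -0.69 ± 0.17.

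Transcripts encoded in the plastid formed the list with the most calls on the lower side. Of 62 tested genes 45 were lower in large than in small polysomes and 1 was higher, with a median of -1.07. These shares were 72.6% and 1.61%, against 23.4% lower and 19.4% higher over all genes. Replicates 1, 2 and 3 differed strongly in level, with a mean over the 62 genes of 8.46, 9.61 and 10.1 in small and 7.57, 8.50 and 9.17 in large polysomes, while the pairs differed by -0.89, -1.11 and -0.97. The calls therefore leaned on the pairing, and without the replicate block 10 genes were lower and 0 higher, with 1 of the 8 NDH genes among the lower. Genes of the plastid lie in operons and share transcripts, so neighbours are not independent.

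By complex, all 8 tested genes of the NDH complex, which carries electrons around photosystem I, were lower, by -2.0 ± 0.24 for ndhI to -0.95 ± 0.28 for ndhG. In photosystem I psaC read 5.67, 7.41 and 7.46 in small and 3.46, 5.27 and 5.36 in large polysomes, or -2.15 ± 0.32, and psaJ differed by -1.95 ± 0.34. The gene for a reaction centre protein, psaB, read 10.2, 11.9 and 12.0 against 10.9, 12.4 and 12.1, a difference of 0.46 ± 0.20 that did not pass. In photosystem II 11 of 15 genes were lower (73.3%, against 23.4% of all genes). The largest differences were those of psbJ at -2.22 ± 0.25 and psbE, of cytochrome b559, at -2.02 ± 0.29. psbD, which encodes the reaction centre protein D2, was the 1 plastid gene that was higher, with 6.16, 7.42 and 7.11 against 6.68, 8.25 and 7.84, or 0.69 ± 0.24, and its call ended without replicate 2 or 3 at ZT12 (adjusted p 0.11 and 0.097 in limma). In the cytochrome b6f complex the small subunit genes petG and petL differed by -2.27 ± 0.34 and -1.88 ± 0.22. Replicate 1 of petG was at the lower end of the scale in large polysomes, so its difference is an underestimate there.

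Subunits of the plastid ATP synthase were spread widely. atpH, the membrane ring subunit, was lower by -1.79 ± 0.25, atpF by -0.59 ± 0.18, and atpA (0.25 ± 0.23) and atpB (0.29 ± 0.20), the large subunits of the catalytic head, did not pass. Of 7 genes for proteins of the small plastid ribosomal subunit 4 were lower (57.1%, against 23.4% of all genes). They were led by rps18 (-1.81 ± 0.22) and rps16 (-1.44 ± 0.22), and rps2 was at 0.06 ± 0.19. Of 7 for the large subunit 5 were lower, led by rpl20 (-1.16 ± 0.20) and rpl32 (-1.04 ± 0.18). Of 3 for the plastid RNA polymerase rpoC1 (-0.84 ± 0.20) and rpoA (-0.56 ± 0.16) were lower. The calls of atpF and rpoA ended without replicate 2 at ZT12 (adjusted p 0.081 and 0.1 in limma), and that of rpoA also without replicate 3 (0.054). Of the large subunit genes 3 were lower without replicate 2 or without replicate 3. Among the remaining genes were clpP (-1.53 ± 0.17), a protease subunit, and ycf4 (-1.34 ± 0.22), a photosystem I assembly factor.

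**Figure D4:**
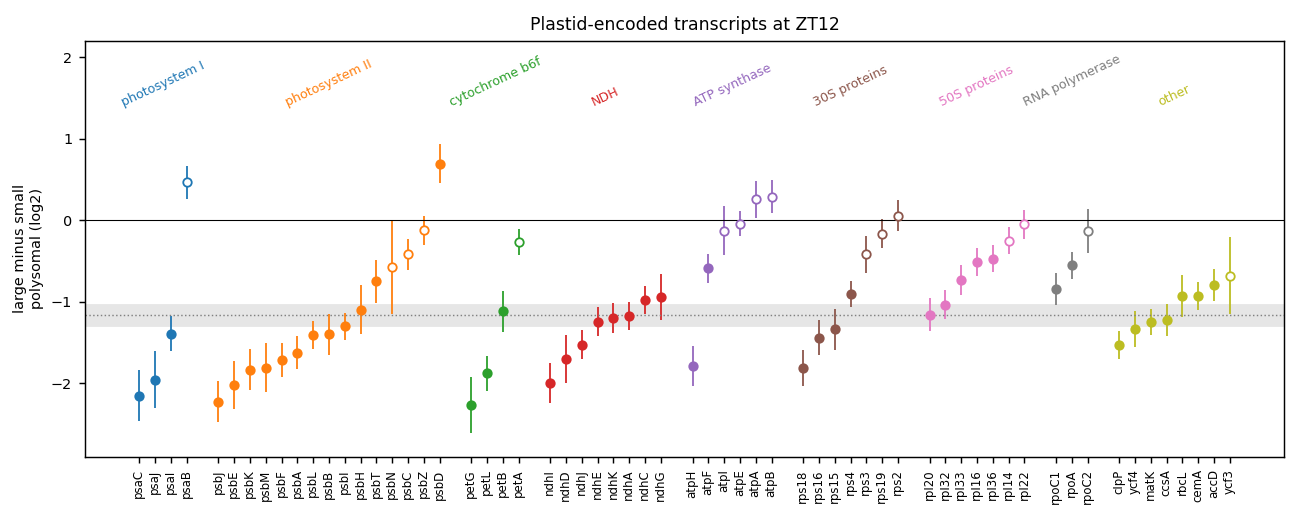
Large minus small polysomal difference at ZT12 (y axis, log2, error bars SE) of the 62 plastid-encoded genes, grouped by complex. Filled points passed the test and open points did not, and the dotted line with its grey band is the mean difference and SD (n = 3) of the probe sets for added polyadenylated control RNAs, -1.17 ± 0.13. The 5 genes above 0 are psaB, psbD, atpA, atpB and rps2.

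Of 6 mitochondrion-encoded genes 4 were lower in large polysomes and 0 higher (median -0.76), against 23.4% lower and 19.4% higher over all genes. nad1 read 4.65, 4.54 and 5.33 against 3.58, 3.95 and 4.19, or -0.93 ± 0.19, ccb452 differed by -0.91 ± 0.21 and nad4 by -0.62 ± 0.18, and nad5 at -0.50 ± 0.26 did not pass. The call of nad4 ended in limma with replicate 3 left out at ZT12 (adjusted p 0.1) and under cyclic loess (0.055). Without the replicate block 1 of the 6 was lower. Complementary DNA was primed with oligo(dT), which organelle mRNAs in general are less suited to. The 27 probe sets for added polyadenylated control RNAs moved the same way. Their mean was 5.10, 4.81 and 5.77 in small and 4.02, 3.70 and 4.46 in large polysomal RNA, lower in 3 of 3 pairs by 1.17 on average, which is about the median of the plastid list. The signal of 3′ minus 5′ probe sets, a sign of RNA quality, also differed between the fractions in all 3 pairs, by -0.98 ± 0.63 (SD, n = 3) for GAPDH, 0.46 ± 0.11 for actin and -0.30 ± 0.08 for ubiquitin. The hybridisation controls read 10.5, 11.9 and 11.9 in small and 10.5, 11.6 and 11.4 in large polysomal RNA, lower in replicate 1 of both. The part of these differences in the organelle results was not tested.

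The differences at ZT12 resembled those at the other times, which came from other arrays. Across the 6846 genes they correlated with those at ZT0, ZT6 and ZT18 at Pearson's r of 0.887, 0.925 and 0.875 (Spearman's rho 0.864, 0.914 and 0.853), as a description across genes of arrays processed together. Of the 2927 genes called at ZT12, 2786 (95.2%) had the same sign at all 3 other times. When the difference itself was tested, 0 genes had a higher and 0 a lower large minus small difference at ZT12 than on average at the other times in limma, and 202 genes (2.95%) had an unadjusted p under 0.05. Against ZT0 and against ZT6 alone 0 genes passed, with 484 (7.07%) and 211 (3.08%) at an unadjusted p under 0.05. Against ZT18 0 were higher and 2 (0.0292%) lower, with 563 (8.22%) at an unadjusted p under 0.05.

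The 2 genes that differed from ZT18 were AT2G47880 and AT2G43610. AT2G47880 read 5.01, 6.08 and 4.15 in small and 3.00, 4.41 and 3.79 in large polysomes at ZT12, a difference of -1.35 ± 0.24, against 0.61 ± 0.24 at ZT18. ZT12 minus ZT18 was -1.95 (adjusted p 0.043 in limma). AT2G43610 had a difference of 0.08 ± 0.17 at ZT12 and 1.53 ± 0.17 at ZT18, so that its -1.45 (adjusted p 0.043) came from the ZT18 side. Both calls ended with median centring and cyclic loess (adjusted p 0.053 and 0.077 for each), and that of AT2G43610 without any 1 of the ZT12 replicates.

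Some genes had visibly different values at ZT12 without passing. Hsp70-2 differed between fractions by 1.68 ± 0.27 at ZT12 and by 0.04, 0.79 and 0.09 at ZT0, ZT6 and ZT18, each with an SE of 0.27. Its ZT12 minus the mean of the other times was 1.37 (adjusted p 0.698). GI differed by 0.89 ± 0.18 at ZT12 and 0.51 ± 0.18 at ZT6, and at ZT0 and ZT18 it read 2.2 to 2.36, at the lower end of the scale, where no difference could be measured. AT4G31875 had the lowest p of the genes tested against the mean of the other times. It differed by -0.91 ± 0.19 at ZT12 and by -2.57, -2.06 and -2.10 at the other times, a contrast of 1.33 (adjusted p 0.067). Its large polysomal values at ZT12 were 2.2, 2.2 and 2.26, so the scale ended there and the difference at ZT12 is an underestimate. AT1G64370 was at 2.82, 2.63 and 2.96 and COR47 at 1.54, 1.75 and 1.66 at ZT0, ZT6 and ZT18. Some leading genes had smaller differences at ZT18 than at ZT12, AT2G14460 with -1.93 against -3.17, AT2G43590 with 1.36 against 2.32 and AT4G12490 with 1.24 against 2.32. Others had larger ones at ZT18, such as AT1G04800 with 2.32 against 2.01 and AT1G53030 with -2.65 against -2.50. None of these passed the test between times. A choice by size at ZT12 favours smaller differences at other times.

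**Figure D5:**
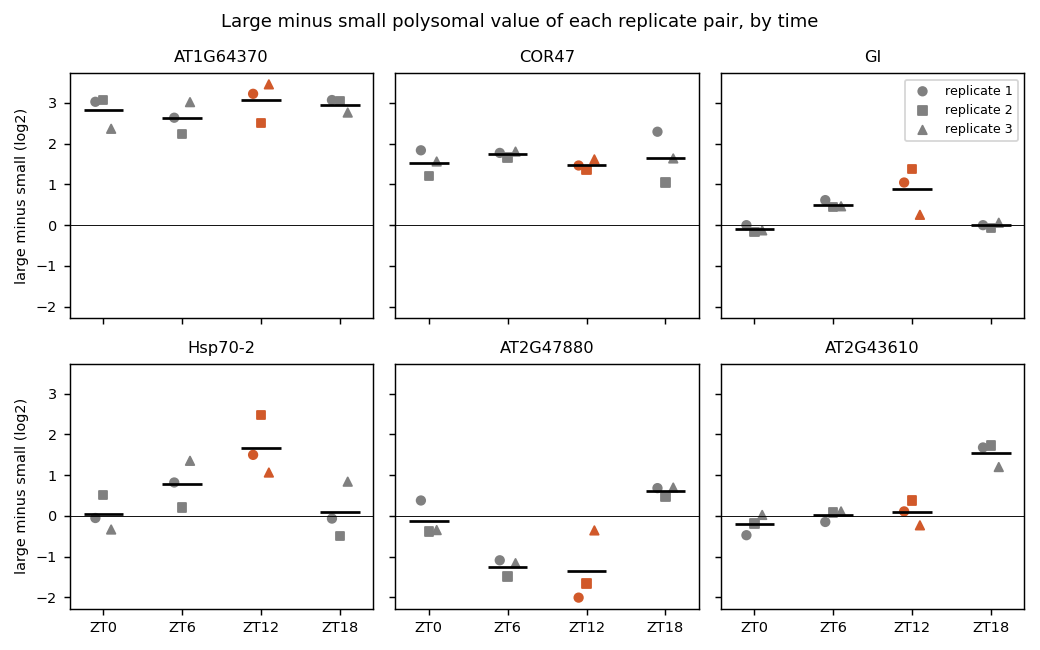
Large minus small polysomal difference (y axis, log2) of each replicate pair at ZT0, ZT6, ZT12 and ZT18 for 6 genes. Points are pairs, shaped by replicate and orange at ZT12, and black bars are means. AT1G64370 and COR47 lie above 0 in every pair, while AT2G47880 lies below 0 at ZT12 and above 0 at ZT18.

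The list medians differed by time to different degrees. The plastid-encoded median was -1.07 at ZT12, against -1.14, -0.68 and -1.59 at ZT0, ZT6 and ZT18, and the polyadenylated controls differed by -1.17 ± 0.13 (SD, n = 3) against -1.49 ± 0.42, -0.84 ± 0.29 and -1.20 ± 0.40. The cold-regulated median was 1.33, against 1.60, 1.5 and 1.56. For the 40S list it was 0.22 against 0.24, 0.11 and 0.45, and for the conserved-peptide list -0.30 against -0.22, -0.41 and -0.20. No test of a list against time was made.

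Non-polysomal RNA of ZT12, set beside the pair, showed different patterns among the named genes. It is given as values because its comparison with small polysomes shares their arrays. AT1G64370 stepped up through the fractions, with means of 5.78, 7.05 and 10.1 in non-polysomal, small and large polysomal RNA, and so did AT4G34290 (5.54, 7.27 and 9.35) and COR47 (10.2, 10.9 and 12.4). TRXF2 was at 7.36 and 7.40 in the first pair of fractions and at 9.17 in large polysomes. AT1G53030 stepped down, from 10.9 to 9.52 to 7.02, as did AT5G21020 (8.74, 7.44 and 4.57). MT1C was highest in small polysomes, at 11.7, with 9.80 in non-polysomal and 9.87 in large polysomal RNA, and AT3G09470 likewise, at 9.31 between 8.11 and 5.77. psbD read 5.60 ± 1.33 (SD, n = 3), 6.90 and 7.59, rising through the fractions, and petG 7.41 ± 1.47, 5.13 and 2.86.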

How the data were processed

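The authors deposited 1 log2 value per probe set and array, from GCRMA with affy 1.42.3 and R 3.1, per the submitters' processing notes. Precision is limited by the number of arrays. Of 22810 probe sets, 64 were controls, 13513 were paired with 1 gene, 503 with several and 8730 with none in the probe table. Each gene was taken by its brightest single-gene probe set. Counts in a list are over its tested members, often a small part of the genes listed. For example, 5 of 31 photosystem and electron transport genes and 4 of 31 translation factor genes were tested. Of the 6846 tested genes 6823 matched the gene table of assembly TAIR10.1, used for names only.

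Large and small polysomal arrays of all 4 times (24 arrays, 12 extracts) were fitted with limma 3.58.1 in R 4.3.3, with fraction within time and the extract (time and replicate number) as a block, 2-sided, with Benjamini-Hochberg adjustment over all tested genes. The fit assumes the same spread at each time. Replicate arrays of a fraction correlated at 0.976 to 0.985 at ZT0 and 0.977 to 0.988 at ZT6. At ZT12 they correlated at 0.955 to 0.977 and at ZT18 at 0.934 to 0.974. The SEs at ZT12 may therefore be too small. With only the 6 ZT12 arrays, 1112 genes were higher and 1426 lower. The block follows the data: deviations from the group means of large and small arrays with the same replicate number correlated at 0.255 to 0.603 in all 12 extracts, and at -0.523 to 0.07 for different numbers. SEs are the fit's, and SDs are over arrays. Other scalings, filters, probe rules, fits and left-out replicates were run as alternatives.

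Named were the 10 called genes with the largest difference in each direction and the same sign in all 3 pairs, the 2 highest and 2 lowest members of each list (all of lists with up to 4), called genes between times, the gene with the lowest p between times and the genes in the plot by time (after values were seen), and, chosen after their values were seen, the 10 called genes with a symbol in each direction and members of symbol families. Within plastid complexes the lowest 2 and members above 0 were named, a rule also made after values were seen. The comparison and the lists were chosen with earlier results of these data known. Seedlings overexpressing CCA1, named in the series' design, were not analysed here.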

Additional observations from a re-analysis of the deposited data

Results flagged for a closer look

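AT2G47880 was flagged because its large minus small difference at ZT12 differed from that at ZT18 in the test of the difference itself, by -1.95 (adjusted p 0.043 in limma). The 3 pairs were at -2.01, -1.67 and -0.36 at ZT12 and at 0.68, 0.46 and 0.69 at ZT18. AT2G43610 was flagged by the same test at -1.45 (adjusted p 0.043), with pairs at 0.11, 0.37 and -0.23 at ZT12 and at 1.68, 1.73 and 1.20 at ZT18. These are 2 of 6846 genes tested, and how far either holds is given below.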

How the results depend on the processing

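The counts of 1325 higher and 1602 lower genes at ZT12 stayed within 1.5 times under median centring, cyclic loess, 3 other filters, the mean of a gene's probe sets, only the 6 ZT12 arrays, all 36 arrays and a trended robust variance. The balance of directions moved, with 45.3% of calls higher in the fit reported, 48.7% after median centring and 50.8% after cyclic loess. With all probe sets and no other scaling 52.2% of calls were higher. The counts were 993 and 1280 with no replicate block, of which 989 and 1277 were calls of the fit with the block. With all probe sets they were 2881 and 2634, over 12719 probe sets tested. Without replicates 1, 2 or 3, at ZT12 or at every time, the counts ran from 882 to 1117 higher and from 1174 to 1424 lower; leaving them out at every time was chosen after seeing the data. In none of these fits except that of all probe sets, where it was not counted, did a called gene turn to a call in the other direction. Against the mean of the other times, 1 gene was higher with cyclic loess and 1 with all 36 arrays (AT4G31875 in both, adjusted p 0.049 and 0.038 in limma), and leaving out 1 ZT12 replicate gave 0 to 0 higher and 0 to 1 lower.

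Of the difference from ZT18, both calls also ended with no filter on dim genes (adjusted p 0.37 for AT2G47880 and 0.14 for AT2G43610), with no replicate block (1 for each), with all 36 arrays (0.16) and with a trended robust variance (0.061). AT2G47880 held without replicate 3 alone among the left-out ZT12 replicates (-2.45, adjusted p 0.00076).

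Genes that had not passed changed sign when 1 ZT12 replicate was left out. Their differences then ran from -0.246 to 0.055 for LHCB4.1, -0.256 to 0.024 for PRK, -0.01 to 0.362 for HPR, -0.216 to 0.168 for AT5G47030, -0.248 to 0.42 for CYTC-2 (also -0.079), -0.247 to 0.018 for AT1G04810, -0.325 to 0.069 for TUA6, -0.034 to 0.231 for TUB5, -0.045 to 0.892 for THI2.2, -0.261 to 0.357 for AT5G37670, -0.08 to 0.235 for DPE1, -0.045 to 0.422 for PWD and -0.063 to 0.239 for AT2G43610. RCA and PYK10 passed with all 36 arrays (adjusted p 0.041 and 0.049 in limma). Both also passed with cyclic loess, a filter at a mean of 6, a trended robust variance and without replicate 1. Without replicate 2 RCA (adjusted p 0.049 in limma), AT4G20980 (0.0065) and THI2.2 (0.0095) passed. AT4G20980 passed with cyclic loess too (0.032), and psaB with a trended robust variance (0.047). A comparison by protein length was planned and not run, because no table of lengths of the files' build was at hand. Signals near 2.2, the lower end of the scale, limit what can be seen for dim genes.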
